A study of Mus musculus with 12 samples.

Results

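Total RNA of mouse embryos at the 4-cell stage (4C) was measured after injection of zygotes with either of 2 antisense oligonucleotides (ASOs). One targets LINE1, and the other is a control named RC in the labels. An ASO is a short synthetic strand that pairs with its target RNA. The comparison took the 6 libraries of the 4C table, 3 with the LINE1 ASO and 3 with the RC ASO, out of 12 in the series. All 23284 genes of that table entered, and 14231 passed the filter on low counts and were tested. Both groups were C57BL/6J embryos from superovulated females, injected as zygotes at 0.75 mM and collected after 2 days of culture. The sources used here do not give the number of embryos per library, their sex or what RC stands for. Each library was made from 500 pg of RNA with a kit for total RNA that keeps strand, and read as single-end 50 nt reads, per the labels' protocols. The total count was 24202425, 25101276 and 24641722 in LINE1 ASO libraries 1, 2 and 3, and 21030581, 19160716 and 24249661 in RC libraries 1, 2 and 3. Values below are CPM (counts scaled to a fixed library size) after scaling by trimmed mean of M-values (TMM), and wherever 3 values follow each other they belong to libraries 1, 2 and 3 of that group. A gene is called when its adjusted p is under 0.05 in edgeR's quasi-likelihood F-test. LINE1 RNA was not analysed here, and the knockdown itself is unchecked. The labels do not say whether libraries came from separate animals or injection days, so p-values measure a spread among libraries that may be technical. With no spike-in stated, every value is relative to the rest of its library. Fewer cells of a kind and less RNA per cell cannot be told apart.

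LINE1 elements are retrotransposons that copy themselves through RNA, and in mouse they are transcribed strongly in cleavage-stage embryos. In mouse embryonic stem cells and embryos LINE1 RNA is known to act in the nucleus with nucleolin and the co-repressor KAP1 (Trim28), at the array of Dux genes and at ribosomal DNA. Dux encodes a homeodomain transcription factor that activates a short-lived set of 2-cell-stage transcripts, among them the Zscan4 genes. Normal embryos have largely shut these off by 4C, when the embryo's own genome is active.

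Transcripts of the oocyte and early embryo were present in both groups. The germ cell and early embryo gene Dppa3 had 1153, 1058 and 1142 CPM in LINE1 ASO libraries, against 1939, 1742 and 1250.5 in RC libraries. Zp3, which encodes a zona pellucida protein made in the oocyte, had 38.6, 40.2 and 41.7 CPM in LINE1 ASO libraries, against 36.5, 37.9 and 45.8 in RC libraries. Within the groups, log2 CPM values correlated across genes at 0.934 to 0.956 among LINE1 ASO libraries and at 0.926 to 0.943 among RC libraries, and replicates differed by more than counting noise (chi-square per degree of freedom 35.9 to 86.8).

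LINE1 ASO library 3 lay between the other LINE1 ASO libraries and the RC libraries. Its correlation with RC library 3 (0.947) was higher than with LINE1 ASO library 1 (0.934) or library 2 (0.941). On the first principal component, which held 38.7% of the variance, LINE1 ASO libraries 1, 2 and 3 stood at -66.2, -68.3 and -17.4, and RC libraries 1, 2 and 3 at 76.6, 42.8 and 32.3. The groups did not overlap on it, and library 3 was the LINE1 ASO library nearest to RC. To see how much of the difference library 3 carried, genes were called from LINE1 ASO libraries 1 and 2 alone against the RC libraries. Library 3 had no part in choosing these genes, but the RC libraries did, and they are also the reference below. Noise in the RC libraries can therefore raise the counts on the same side and outside the range. Choosing on libraries 1 and 2 can enlarge their difference and so lower the share of library 3. The fit gave 2126 genes, 2103 of which were also tested with all 6 libraries. Library 3 lay on the same side of the RC mean as libraries 1 and 2 for 1896 of them (90.2%), and outside the range of the RC libraries for 1514 (72.0%). Its difference from the RC mean in log2 CPM was a median of 39.4% of that of libraries 1 and 2 (quartiles 19.8% and 60.7%). The median was 44.7% over the 708 higher genes and 37.0% over the 1395 lower ones. With library 1 or 2 left out in the same way, the medians were 107% over 11 genes and 124% over 9. There the remaining pair included library 3, whose smaller differences can raise the share. The few genes were also those that passed with library 3 in the fit. These medians are therefore no counterpart to that of library 3.

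**Figure D1:**
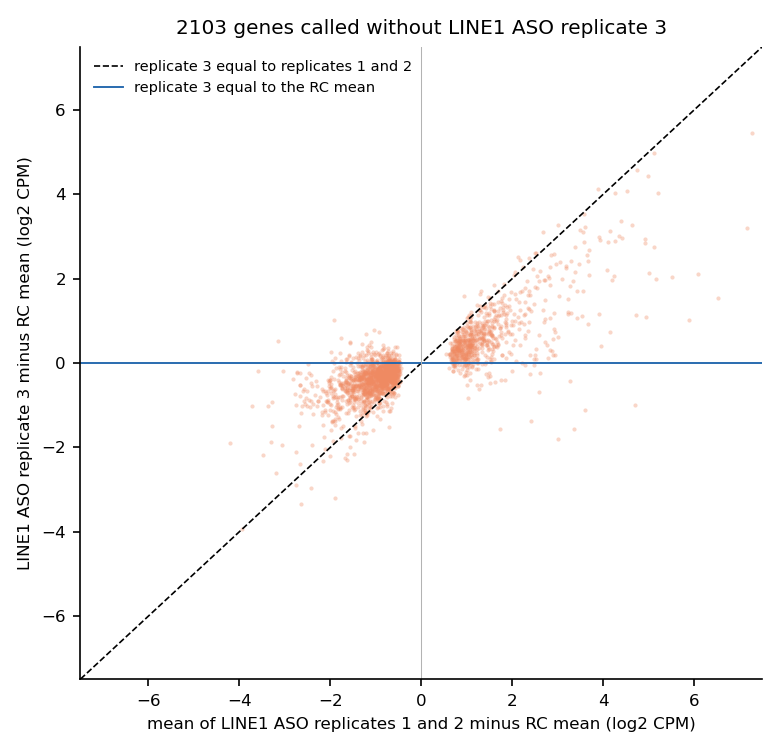
Each point is 1 of 2103 genes called without LINE1 ASO replicate 3. The x axis is the mean of LINE1 ASO replicates 1 and 2 minus the RC mean, and the y axis is LINE1 ASO replicate 3 minus the RC mean, both in log2 CPM. Most points lie between the line at 0, where replicate 3 equals the RC mean, and the dashed diagonal, where it equals replicates 1 and 2, with a median share of 39.4%.

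With all 6 libraries, 274 genes were higher and 371 lower in LINE1 ASO embryos, 645 in all or 4.53% of those tested (1.93% higher and 2.61% lower). In 214 of the higher genes the log2 change was above 1, and in 215 of the lower genes below -1. An unadjusted p under 0.05 was reached by 3156 genes. The groups were separate for all of the 645 genes, and for 27.4% of all tested genes (14.4% with LINE1 ASO higher and 13.1% lower). DESeq2 called 1491 genes, 9.58% of those it tested. Over all genes tested with edgeR the median log2 change was 0.05. Scaled by library totals in place of TMM, the median moved by 0.181 to 0.23, and the split of calls became 563 higher and 239 lower, so that 70.2% of calls were higher, against 42.5% with TMM. A joint fit of all 12 libraries called 1099 higher and 615 lower. The count rested on single libraries: it was 11, 9 and 2126 without LINE1 ASO library 1, 2 or 3, and 4, 15 and 117 without RC library 1, 2 or 3. Of the 645 genes, 10, 9, 635, 4, 15 and 107 were called in those fits, each with the same sign. Of the 86 called genes named below under the naming rule, 79, 79, 0, 82, 78 and 64 were no longer called in the same 6 fits.

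Only 4 genes were called with all 6 libraries and in each of the 6 fits without 1 library. Haus6, a subunit of the augmin complex that seeds microtubules inside the spindle, had 167, 129.7 and 175 CPM in LINE1 ASO libraries, against 453, 512 and 499 in RC libraries (log2 -1.64, SE 0.18, adjusted p = 0.00253). Maml1, a co-activator of Notch signalling, had 229.6, 243 and 120.0 CPM in LINE1 ASO libraries, against 25.3, 42.0 and 34.2 in RC libraries (log2 2.55, SE 0.28, adjusted p = 0.00253). Zfp281, a zinc finger factor of pluripotent cells, had 71.3, 117 and 74.9 CPM in LINE1 ASO libraries, against 7.50, 18.8 and 14.2 in RC libraries (log2 2.70, SE 0.32, adjusted p = 0.00363). For all 3 the groups were well apart, and LINE1 ASO library 3 kept 85.7% of the difference of the other libraries for Haus6, 65.5% for Maml1 and 89.9% for Zfp281. Tlr13, on the X chromosome, encodes an endosomal receptor that in mouse immune cells recognises bacterial ribosomal RNA. It had 10.8, 16.2 and 3.70 CPM in LINE1 ASO libraries and no count in RC libraries. With the 827 counts of the LINE1 ASO libraries pooled, that is at least 212-fold higher, taking 3 counts over the RC libraries together as the floor (0.0496 CPM; adjusted p = 0.00363). Floors and ratios of this kind cover counting error only. The purine synthesis gene Prps2, named after its values were seen, was called in 5 of the 6 fits, with 39.7, 47.7 and 22.9 CPM in LINE1 ASO libraries, against 3.62, 6.62 and 4.37 in RC libraries (log2 2.92).

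Most of the largest increases were in genes with almost no RNA in RC embryos. Nacad, which encodes a protein with a nascent polypeptide-associated complex domain, had 19.6, 10.4 and 0.845 CPM in LINE1 ASO libraries, against 0.0532, 0 and 0 in RC libraries. The ratio, from 1 count in all RC libraries, was 628 with a 95% counting interval of 112 to 24819.7 (adjusted p = 0.0172). Its value in LINE1 ASO library 3 was far below libraries 1 and 2 and still above every RC library. Cd81, a tetraspanin of the cell surface, had 10.2, 8.37 and 6.76 CPM in LINE1 ASO libraries, against 0.213, 0.215 and 0.649 in RC libraries (log2 4.51, SE 0.61, adjusted p = 0.0105). Gfpt2, an enzyme of hexosamine synthesis, had 4.80, 4.27 and 4.38 CPM in LINE1 ASO libraries, against 0.585, 0.0538 and 0.519 in RC libraries (log2 3.51, SE 0.81, adjusted p = 0.0316), so that library 3 stood level with the other LINE1 ASO libraries for this gene. Kank3, a cytoskeletal adaptor, had 11, 8.51 and 7.12 CPM in LINE1 ASO libraries, against 0.692, 0.323 and 1.73 in RC libraries (log2 3.25, SE 0.61, adjusted p = 0.0181). The other genes of this group were the calicin gene Ccin (log2 5.49), the myelination gene Sh3tc2 (4.10), the epiplakin gene Eppk1 (3.80), the ligand gene Wnt7b (3.53) and the serine protease genes Prss42 (3.47) and Tmprss12 (3.23), and each was higher in all 3 LINE1 ASO libraries than in any RC library.

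Among the largest decreases, the retinoic acid-induced receptor gene Gprc5a had 5.70, 2.40 and 9.29 CPM in LINE1 ASO libraries, against 58.6, 34.7 and 36.7 in RC libraries (log2 -2.90, SE 0.43, adjusted p = 0.0144). Tdgf1 (Cripto), the co-receptor through which Nodal signals, had 13.2, 14.5 and 37.5 CPM in LINE1 ASO libraries, against 198, 110.0 and 117 in RC libraries (log2 -2.71, SE 0.41, adjusted p = 0.0172). Vwa5b1, which encodes a protein with a von Willebrand factor A domain, had 3.16, 2.05 and 4.02 CPM in LINE1 ASO libraries, against 17.7, 17.4 and 17.9 in RC libraries (log2 -2.52, SE 0.37, adjusted p = 0.0144). LINE1 ASO library 3 was the nearest of its group to RC for these 3 genes and still below every RC library. The sarcomere gene Lmod3 (log2 -3.20), the protein S gene Pros1 (-2.99), the development gene Greb1l (-2.45), the potassium channel gene Kcnv2 (-2.42), the tubulin deglutamylase gene Agbl2 (-2.16) and the lysophosphatidic acid receptor gene Lpar5 (-2.14) were lower as well. For Pros1, Greb1l, Agbl2 and Lpar5 library 3 stood as far from the RC mean as the mean of libraries 1 and 2 or farther, with shares of 105%, 122%, 110.1% and 108%.

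**Figure D2:**
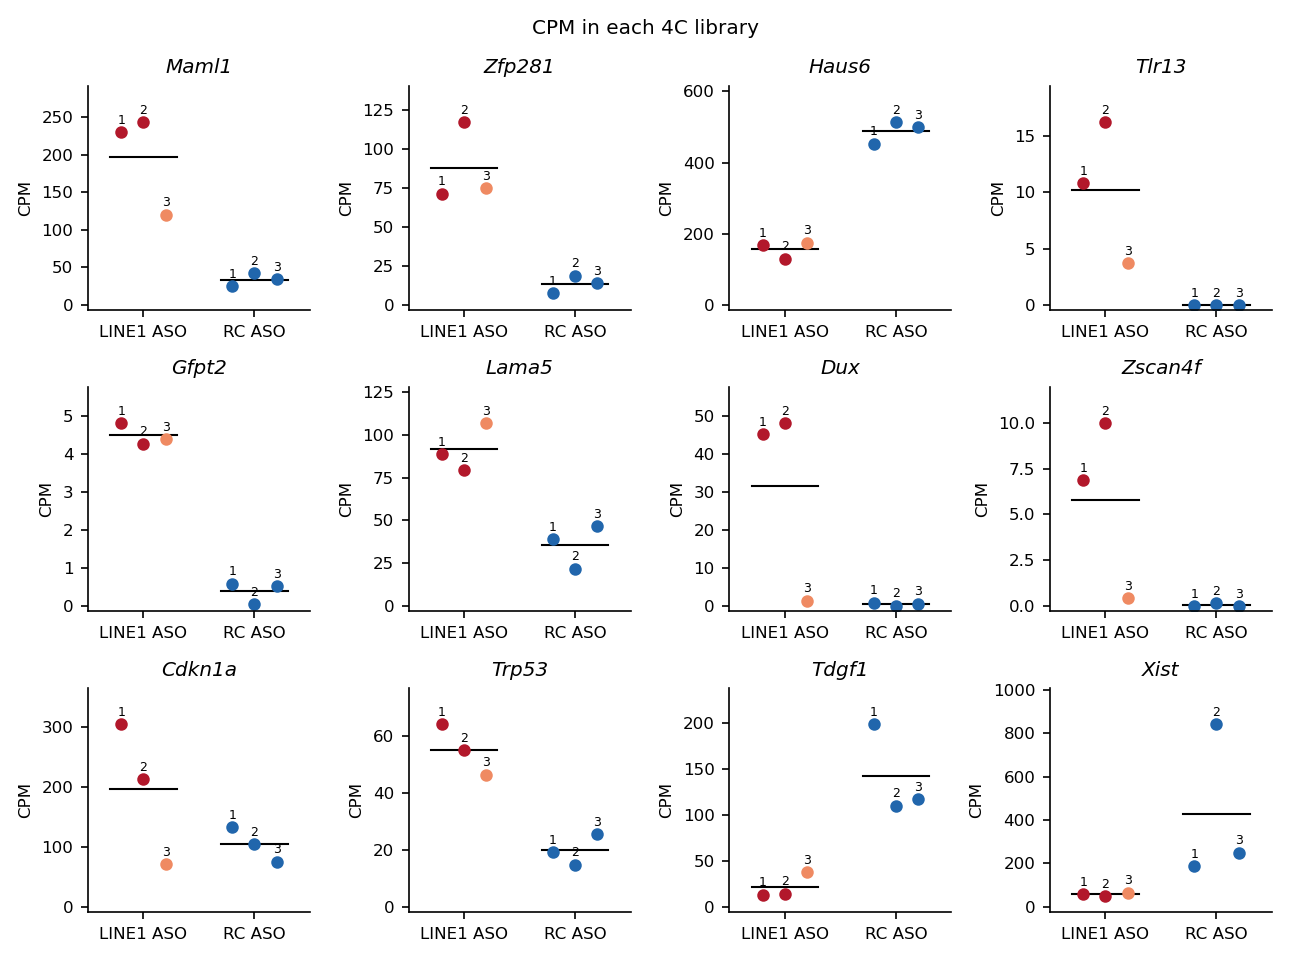
CPM of 12 genes in each 4C library, LINE1 ASO left and RC ASO right; numbers are replicates, lines are group means, and each panel has its own linear axis from 0. LINE1 ASO replicate 3 (light) stands with replicates 1 and 2 for Gfpt2, Lama5, Haus6 and Xist, and close to the RC libraries for Dux, Zscan4f and Cdkn1a.

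Many 2-cell-stage transcripts were high in LINE1 ASO libraries 1 and 2 and near the RC level in library 3. Dux had 45.4, 48.2 and 1.41 CPM in LINE1 ASO libraries, against 0.904, 0.108 and 0.605 in RC libraries. The groups did not overlap, but the log2 difference of 5.85 (SE 1.32) missed the threshold with all 6 libraries (adjusted p = 0.0515). Without LINE1 ASO library 3 it was 6.38 (SE 0.50) with an adjusted p of 8.42e-06, and over all alternatives its adjusted p ran from 8.42e-06 to 0.239. Zscan4f, a member of a family of zinc finger genes expressed at the 2-cell stage, had 6.87, 9.96 and 0.442 CPM in LINE1 ASO libraries, against 0, 0.161 and 0 in RC libraries. The RC libraries held 3 counts in all, and the ratio was 120.1 with a 95% counting interval of 40.8 to 584 (adjusted p = 0.0203). Zscan4c had 9.92, 9.15 and 0.241 CPM in LINE1 ASO libraries, against 0, 0.484 and 0 in RC libraries (adjusted p = 0.0742). Zscan4d had 1.72, 8.55 and 0.563 CPM in LINE1 ASO libraries, against 0.266, 0.592 and 0.562 in RC libraries (adjusted p = 0.102). In both the groups overlapped, because library 3 fell within the RC range. The Zscan4 genes are near-identical copies in 1 cluster on chromosome 7, and Dux is an array of copies, so reads may have been split among copies or lost, and the values of single copies are uncertain.

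The promoters of 3 Zscan4 genes are shown because Dux is known to bind upstream of these genes. They are the 250 bases before the annotated start, from RefSeq on GRCm38.p6, with matches to TGATTNAAT, part of the mouse Dux motif, in capitals; both strands were searched.
Zscan4c (chr7:11005495-11005744, plus strand): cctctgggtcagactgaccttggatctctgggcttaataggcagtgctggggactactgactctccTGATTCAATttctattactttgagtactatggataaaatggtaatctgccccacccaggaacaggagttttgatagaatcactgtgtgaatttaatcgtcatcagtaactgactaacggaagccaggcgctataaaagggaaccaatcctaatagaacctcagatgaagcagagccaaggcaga
Zscan4d (chr7:11166149-11166398, minus strand): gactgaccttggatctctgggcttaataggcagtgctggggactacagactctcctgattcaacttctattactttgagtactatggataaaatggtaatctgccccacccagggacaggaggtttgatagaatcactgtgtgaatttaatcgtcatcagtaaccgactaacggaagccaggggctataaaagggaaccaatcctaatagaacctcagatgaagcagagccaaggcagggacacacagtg
Zscan4f (chr7:11397665-11397914, plus strand): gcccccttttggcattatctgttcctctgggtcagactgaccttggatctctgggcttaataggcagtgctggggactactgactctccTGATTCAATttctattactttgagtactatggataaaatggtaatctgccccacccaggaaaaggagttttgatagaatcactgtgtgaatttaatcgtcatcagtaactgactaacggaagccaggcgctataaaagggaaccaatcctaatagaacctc
Identity was counted over longer promoter sequences that begin with these windows, at the best shift without gaps. Zscan4c and Zscan4f shared 99.3% of 277 bases, Zscan4d and Zscan4f 97.4% of 266, and Zscan4c and Zscan4d 97.2% of 289. The motif stands 184 to 176 bases before the start of Zscan4c and 161 to 153 before that of Zscan4f, and is not in the window of Zscan4d. Of 32851 promoter windows of the same length, from 27025 genes, 216 (0.658%) hold it. Of the 13 list genes with a window 2 do in any of their windows, Zscan4c and Zscan4f. The first count is by window and the second by gene, so their shares cannot be compared directly. A match is a description of letters, not a site.

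Of 42 tested genes of the 2-cell list, 2 were called higher (Zscan4f and BC080695), or 4.76% against 1.93% of all tested genes. Another 1 was lower (2.38%, against 2.61%), and the median log2 difference was 1.62. The lower gene was Dppa2, a chromatin factor upstream of Dux, with 442, 489 and 507 CPM in LINE1 ASO libraries, against 864, 866 and 617 in RC libraries (log2 -0.71, SE 0.18, adjusted p = 0.0429). The list's genes were set on the list with earlier results of these data known, and many are copies of each other. The list's summed level was 4273, 4436 and 3331 CPM in LINE1 ASO libraries, against 4376, 4700 and 3511 in RC libraries. By that measure LINE1 ASO libraries 1 and 2 lay within the RC range. The sum is weighted to abundant members such as Dppa2, so it does not describe the typical member. The log2 difference was positive for 30 of the 42 tested genes of the list and negative for 12. By library, the median difference of its members from the RC mean was 1.76, 2.88 and -0.05 in LINE1 ASO libraries 1, 2 and 3, against -0.12, 0.77 and -0.45 in RC libraries 1, 2 and 3. In the fit without LINE1 ASO library 3, 24 of 44 were called higher and 1 lower. Over all genes of that fit 4.89% were higher and 9.38% lower (14.3% in all). For the 23 such genes tested in both fits, library 3 carried a median of 15.9% of the difference of libraries 1 and 2, and it lay outside the RC range for 7 of them. Of the 23 genes, 3 are given here that were named after their values were seen. The deubiquitinase gene Dub1a had 79.3, 76.0 and 7.2 CPM in LINE1 ASO libraries, against 5.85, 6.45 and 2.12 in RC libraries. Pramef6 had 8.63, 8.58 and 0.0804 CPM in LINE1 ASO libraries, against 1.44, 0.0538 and 0.0865 in RC libraries. The histone demethylase gene Kdm4d had 15.4, 20.1 and 3.78 CPM in LINE1 ASO libraries, against 4.15, 5.49 and 3.55 in RC libraries. In all 3, libraries 1 and 2 of the LINE1 ASO stood apart from the other 4 libraries, and library 3 was outside the RC range for Dub1a alone. In the fits without 1 of the other 5 libraries no member was called in either direction. Zfp352, a zinc finger gene copied by retrotransposition and linked to the 2-cell stage, had 6.87, 54.0 and 19 CPM in LINE1 ASO libraries, against 10.3, 33.0 and 6.4 in RC libraries (log2 0.69, adjusted p = 0.682), with overlapping groups and the highest values in libraries 2 of both groups.

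The p53 pathway genes were the list with the largest share of calls in the higher direction. p53, encoded by Trp53, is a transcription factor that switches on cell cycle inhibitors, pro-apoptotic genes and its own inhibitors after stress. Of 47 tested genes of the list 8 were higher (17%, against 1.93% of all tested genes) and 3 lower (6.38%, against 2.61%). The median log2 difference was 0.51. Without LINE1 ASO library 3, 20 were higher and 5 lower, where 4.89% of all genes were higher and 9.38% lower. In the fits without 1 of the other libraries at most 2 were higher and none lower. The list's summed level was 6721, 5863 and 4650 CPM in LINE1 ASO libraries, against 5119, 5362 and 4612 in RC libraries. The groups overlapped, with LINE1 ASO library 3 within the RC range. Trp53 itself had 64.0, 55.0 and 46.4 CPM in LINE1 ASO libraries, against 19.3, 14.8 and 25.6 in RC libraries (log2 1.47, SE 0.26, adjusted p = 0.0172). Ppm1d, a phosphatase that switches p53 signalling off, had 52, 43.2 and 31.9 CPM in LINE1 ASO libraries, against 8.41, 13.9 and 11.6 in RC libraries (log2 1.91, SE 0.29, adjusted p = 0.0144). For these 2 genes library 3 was the lowest of the LINE1 ASO libraries and kept 77.9% and 72.8% of the difference.

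Of the targets, the mTORC1 inhibitor gene Ddit4 had 292, 279.7 and 178 CPM in LINE1 ASO libraries, against 115, 94.8 and 83.5 in RC libraries (log2 1.35, SE 0.22, adjusted p = 0.0172). Ccng1, which encodes cyclin G1, had 137, 125 and 57.5 CPM in LINE1 ASO libraries, against 48.0, 39.2 and 36.5 in RC libraries (log2 1.37, SE 0.28, adjusted p = 0.0232). The pro-apoptotic genes Bbc3 (Puma) and Pmaip1 (Noxa) were both higher, and library 3 stood only a little above the highest RC library in each. Bbc3 had 48.7, 35.8 and 18.3 CPM in LINE1 ASO libraries, against 14.5, 5.49 and 5.84 in RC libraries (log2 1.99, SE 0.43, adjusted p = 0.0272). Pmaip1 had 99.1, 112 and 22.8 CPM in LINE1 ASO libraries, against 14.8, 8.55 and 19.8 in RC libraries (log2 2.43, SE 0.56, adjusted p = 0.0470). Also higher were Phlda3, an inhibitor of Akt signalling (log2 1.91), and the p53 ubiquitin ligase gene Mdm2 (0.87). The genes that were lower were Pml (log2 -1.42), the autophagy gene Rb1cc1 (-0.92) and the lysosomal gene Dram1 (-1.78). The best-known target, the cell cycle inhibitor gene Cdkn1a, had 304, 213 and 71.7 CPM in LINE1 ASO libraries, against 133, 105 and 75.7 in RC libraries. The groups overlapped and it did not pass with all libraries (log2 0.91, SE 0.45, adjusted p = 0.289). In 2 further targets, named after their values were seen, library 3 also stood at the RC level. The anti-proliferative gene Btg2 had 102, 81.9 and 7.84 CPM in LINE1 ASO libraries, against 7.24, 3.39 and 8.17 in RC libraries. The polo-like kinase gene Plk2 had 339.7, 227 and 48.5 CPM in LINE1 ASO libraries, against 67.7, 49.0 and 37.5 in RC libraries. Over the 25 genes of the list called without library 3, that library carried a median of 25.5% of the difference. The BCL2 family and caspases carry out apoptosis, and their list leaves out Bbc3 and Pmaip1, family members counted with the p53 genes. None of its 25 tested genes was called. Without LINE1 ASO library 3 the edgeR fit called 1 of 26, which was lower, where 9.38% of all genes were lower. That fit also called the family members Bcl2l13 and Bcl2l15 higher and Bcl2l14 lower, which were not on the list.

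The promoters of Bbc3 and Cdkn1a are shown as the p53 targets with a match to the p53 response element and different behaviour in library 3. The 250 bases before an annotated start are from RefSeq on GRCm38.p6. A gene can have several annotated starts, and only windows with a match were kept to be shown. Capitals mark the match, which is the p53 consensus of 20 bases, its core letters exact and up to 3 mismatches in all, on either strand.
Bbc3 (chr7:16309333-16309582, plus strand): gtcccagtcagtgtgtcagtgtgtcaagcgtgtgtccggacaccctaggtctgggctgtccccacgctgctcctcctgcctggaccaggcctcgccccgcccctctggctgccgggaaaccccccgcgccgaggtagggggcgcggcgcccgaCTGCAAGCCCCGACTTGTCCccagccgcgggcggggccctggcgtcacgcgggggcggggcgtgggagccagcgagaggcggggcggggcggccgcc
Cdkn1a (chr17:29090729-29090978, plus strand): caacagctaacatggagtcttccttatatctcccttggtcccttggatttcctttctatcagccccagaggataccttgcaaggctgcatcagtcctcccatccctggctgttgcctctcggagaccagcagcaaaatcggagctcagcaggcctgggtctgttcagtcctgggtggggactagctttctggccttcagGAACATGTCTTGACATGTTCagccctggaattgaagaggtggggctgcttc
The match lies 97 to 78 bases before the start shown for Bbc3, with 3 mismatches. For Cdkn1a it lies 51 to 32 bases before the start shown, with 1 mismatch. Whether these are the starts used in the embryos was not tested. Of all 32851 windows, from 27025 genes, 156 (0.475%) hold such a match. Of the 35 list genes with a window 5 do in any of their windows (Aen, Bbc3, Cdkn1a, Ckap2 and Trp53). One count is by window and the other by gene, so their shares are not on the same basis. LINE1 ASO library 3 had 18.3 CPM of Bbc3, above the highest RC value of 14.5, and 71.7 CPM of Cdkn1a, below the lowest RC value of 75.7.

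Pluripotency and early lineage factors, which set up the inner cell mass and trophectoderm of the later blastocyst, had more lower than higher calls. Of 47 tested genes 1 was higher (Zfp281) and 5 were lower (10.6%, against 2.61% of all tested genes), with a median of -0.47; it was -0.29 with library totals. Tfap2c, a trophectoderm factor already present in cleavage embryos, had 77.6, 79.6 and 113 CPM in LINE1 ASO libraries, against 207, 177 and 182 in RC libraries (log2 -1.07, SE 0.19, adjusted p = 0.0177). Klf2, a Krüppel-like factor, had 59.6, 87.6 and 138 CPM in LINE1 ASO libraries, against 228, 205 and 229 in RC libraries (log2 -1.21, SE 0.25, adjusted p = 0.0240). The orphan nuclear receptor gene Esrrb had 15.5, 27.7 and 63.3 CPM in LINE1 ASO libraries, against 131, 126 and 129 in RC libraries (log2 -1.86, SE 0.42, adjusted p = 0.0399). Library 3 lay midway for each, above libraries 1 and 2 and below every RC library. Also lower were Nr5a2, a nuclear receptor of the early embryo (log2 -0.90), and the trophectoderm gene Tead4 (-1.07). Pou5f1 (Oct4) had 79.8, 41.7 and 116 CPM in LINE1 ASO libraries, against 227, 130.3 and 209 in RC libraries and just missed the threshold (log2 -1.25, SE 0.32, adjusted p = 0.0501). The homeobox gene Nanog had 1.64, 1.31 and 1.97 CPM in LINE1 ASO libraries, against 6.38, 4.73 and 4.80 in RC libraries (log2 -1.69, SE 0.53, adjusted p = 0.0786). In both, the groups did not overlap. With LINE1 ASO library 3 left out, 18 of 48 were lower and 1 higher, where 9.38% of all genes were lower and 4.89% higher. Without 1 of the other libraries at most 1 was higher and none lower.

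Among Nodal and bone morphogenetic protein (BMP) ligands and co-receptors, Tdgf1 was the only call among 23 tested genes with all 6 libraries. It was lower (4.35% of the list, against 2.61% of all tested genes), and the list's median was 0.53. Without LINE1 ASO library 3, 5 of 23 were higher and 1 lower, where 4.89% of all genes were higher and 9.38% lower. Without 1 of the other libraries at most 1 was called, which was lower. Downstream of them, Tgif1, a repressor of Smad signalling, had 22.2, 25.1 and 14.4 CPM in LINE1 ASO libraries, against 4.63, 5.16 and 6.05 in RC libraries (log2 1.96, SE 0.34, adjusted p = 0.0172). Smad3, which carries TGF-beta, activin and Nodal signals to the nucleus, had 78.3, 68.7 and 41.5 CPM in LINE1 ASO libraries, against 29.7, 35.3 and 28.7 in RC libraries (log2 1.01, SE 0.25, adjusted p = 0.0414). Id3, a typical BMP target, went the other way, with 2.85, 0.671 and 3.14 CPM in LINE1 ASO libraries, against 11.1, 14.4 and 11.8 in RC libraries (log2 -2.49, SE 0.52, adjusted p = 0.0246). These were the 3 calls among 22 tested Smads and target genes. Of the list 9.09% were higher and 4.55% lower, against 1.93% and 2.61% of all tested genes, and its median was 0.46. The members' summed level was 890, 932 and 901 CPM in LINE1 ASO libraries, against 724, 756 and 842 CPM in RC libraries, with no overlap.

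In the fibroblast growth factor (FGF) and Wnt pathways 4 of 57 tested genes were higher (7.02%, against 1.93% of all tested genes). None was lower, and the median was 0.37. The Wnt receptor gene Fzd5 had 61.9, 60.8 and 51.5 CPM in LINE1 ASO libraries, against 21.9, 14.7 and 20.8 in RC libraries (log2 1.60, SE 0.24, adjusted p = 0.0144). Its relative Fzd7 had 42.3, 57.6 and 30.2 CPM in LINE1 ASO libraries, against 12.4, 23.8 and 21.1 in RC libraries (log2 1.18, SE 0.31, adjusted p = 0.0466). The ligand gene Wnt7b had 4.41, 9.15 and 4.91 CPM in LINE1 ASO libraries, against 0.585, 0.161 and 0.822 in RC libraries (log2 3.53, SE 0.69, adjusted p = 0.0200). Spry4, a feedback inhibitor of FGF signalling, had 257, 242 and 102 CPM in LINE1 ASO libraries, against 69.6, 71.4 and 97.1 in RC libraries (log2 1.34, SE 0.29, adjusted p = 0.0291). Library 3 was close to the other LINE1 ASO libraries for Fzd5 and Wnt7b, but for Spry4 only just above the highest RC library. Without it 7 of 58 were higher and 4 lower, where 4.89% of all genes were higher and 9.38% lower. In the fits without 1 of the other libraries at most 1 was higher.

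Cell adhesion, junction and keratin genes were called in both directions. Of 62 tested genes 5 were higher (8.06%, against 1.93% of all tested genes) and 1 lower (1.61%, against 2.61%), and the median was 0.11. Lama5, a laminin chain of basement membranes, had 88.5, 79.4 and 107 CPM in LINE1 ASO libraries, against 39.2, 21.8 and 46.4 in RC libraries (log2 1.35, SE 0.26, adjusted p = 0.0200), with the highest value of all in LINE1 ASO library 3. Itgb4, an integrin that binds laminin, had 105, 95.8 and 62.3 CPM in LINE1 ASO libraries, against 32.9, 38.6 and 47.0 in RC libraries (log2 1.15, SE 0.24, adjusted p = 0.0230). The plakin gene Eppk1 had 13.6, 6.29 and 1.97 CPM in LINE1 ASO libraries, against 1.01, 0.430 and 0.130 in RC libraries (log2 3.80, SE 0.83, adjusted p = 0.0275). The polarity gene Pard6b (log2 1.25) and Cd81, described above, were the other higher genes. Gja1 (connexin 43), the gap junction gene of the compacting embryo, was lower, with 153, 103 and 297 CPM in LINE1 ASO libraries, against 455, 374 and 455 in RC libraries (log2 -1.21, SE 0.31, adjusted p = 0.0457). Without LINE1 ASO library 3 the list had 7 higher and 11 lower genes among 63, where 4.89% of all genes were higher and 9.38% lower. Without 1 of the others it had at most 2 higher and none lower.

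Genes that sense nucleic acids or restrict retroelements were called in 6 of 50 cases, with a median of 0.10. Of these, 5 were higher (10%, against 1.93% of all tested genes) and 1 was lower (2%, against 2.61%). Besides Tlr13, the higher genes included 3 tied to LINE1 itself or to germ cell retroelements. Tex19.1, known in mouse to restrain LINE1 mobilisation, had 125, 143 and 98.9 CPM in LINE1 ASO libraries, against 67.3, 62.3 and 54.9 in RC libraries (log2 0.99, SE 0.20, adjusted p = 0.0200). Its neighbour Tex19.2 had 5.47, 8.30 and 4.63 CPM in LINE1 ASO libraries, against 0.798, 0.699 and 1.21 in RC libraries (log2 2.75, SE 0.57, adjusted p = 0.0233). L1td1, a gene derived from the first open reading frame of LINE1, had 38.3, 32.0 and 33.1 CPM in LINE1 ASO libraries, against 14.7, 18.1 and 17 in RC libraries (log2 1.05, SE 0.25, adjusted p = 0.0334). The DNA exonuclease gene Trex1 had 2.69, 4.59 and 2.09 CPM in LINE1 ASO libraries, against 0.319, 0.0538 and 0.389 in RC libraries (log2 3.58, SE 0.94, adjusted p = 0.0475). Aim2, a sensor of cytosolic DNA, was lower, with 1.56, 3.67 and 0.925 CPM in LINE1 ASO libraries, against 13.1, 10.5 and 5.58 in RC libraries (log2 -2.24, SE 0.56, adjusted p = 0.0419), and did not pass with library totals. LINE1 ASO library 3 kept a median of 68.1% of the difference over the 10 genes of this list called without it, the highest share of the lists with at least 5 such genes, and it was outside the RC range for 8. Whether reads of L1td1 include copies of LINE1 was not tested. In fits without 1 of the other libraries at most 1 member was called, in the higher direction.

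**Figure D3:**
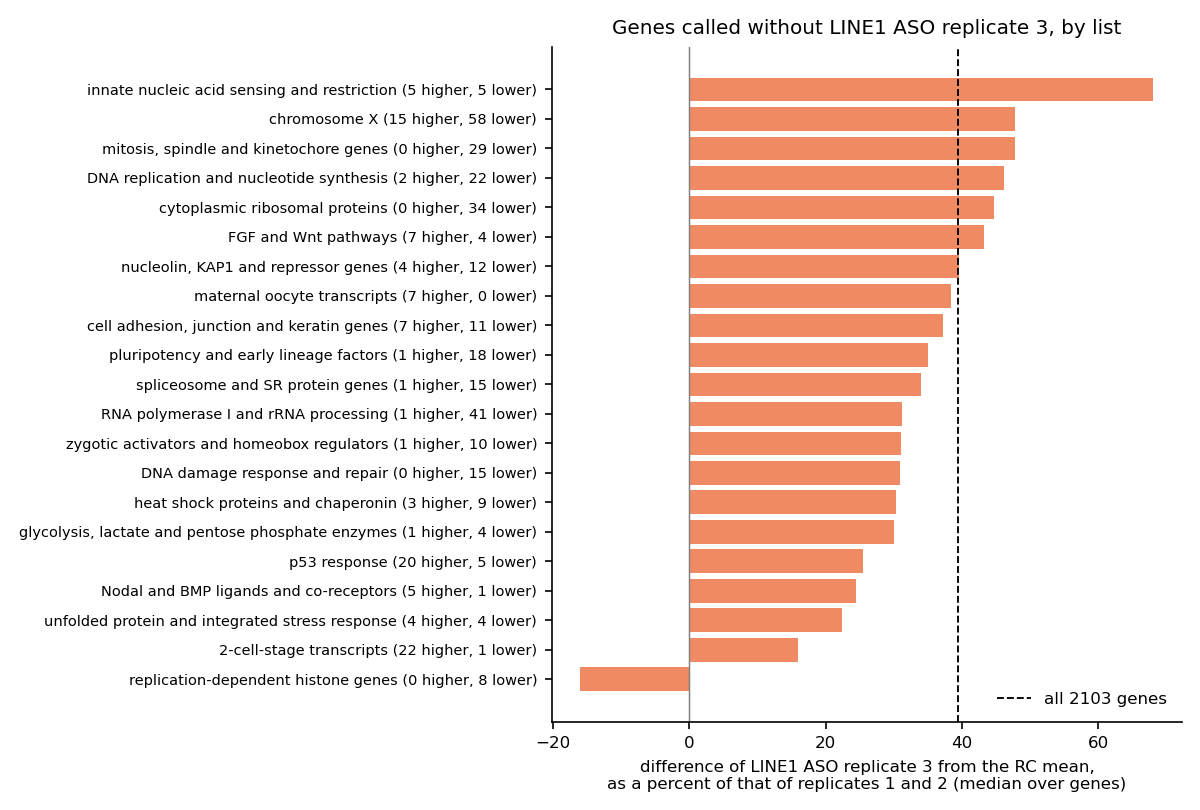
Difference of LINE1 ASO replicate 3 from the RC mean as a percent of that of replicates 1 and 2, as the median over the genes of each list called without replicate 3; numbers in brackets are genes by direction. The dashed line is the median over all 2103 genes, 39.4%. The share is highest for innate sensing and restriction genes (68.1%), 15.9% for 2-cell-stage transcripts and negative for replication-dependent histone genes (-16.0%).

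Nucleolin and KAP1, the proteins through which LINE1 RNA is known to act, had no call with all 6 libraries. Ncl had 2690.0, 2462 and 3072 CPM in LINE1 ASO libraries, against 3969, 2972 and 3468 in RC libraries (log2 -0.34, SE 0.17, adjusted p = 0.266). Trim28 had 463, 433 and 628 CPM in LINE1 ASO libraries, against 811, 538 and 724 in RC libraries (log2 -0.44, SE 0.20, adjusted p = 0.216). Trim28 was called lower without LINE1 ASO library 3 (log2 -0.67, SE 0.18, adjusted p = 0.0246), and its adjusted p over all alternatives ran from 0.0246 to 0.536. The ribosomal RNA precursor gene Rn45s had 45639.8, 37438 and 48449.7 CPM in LINE1 ASO libraries, against 62709, 42552 and 48606 in RC libraries (log2 -0.23, SE 0.19, adjusted p = 0.517). The groups overlapped for all 3, and what part the kit's removal of ribosomal RNA has in the level of Rn45s was not tested. Of 55 tested repressor genes 2 were higher (3.64%, against 1.93% of all tested genes) and 1 lower (1.82%, against 2.61%). The median was -0.18, and near 0 (-0.0020) with library totals. The fit without LINE1 ASO library 3 had 4 higher and 12 lower repressor genes among 55, where 4.89% of all genes were higher and 9.38% lower. Fits without 1 of the others had at most 1 higher and none lower. Zfp57, which guards imprints together with KAP1, had 219, 197 and 167 CPM in LINE1 ASO libraries, against 78.2, 88.8 and 106 in RC libraries (log2 1.09, SE 0.19, adjusted p = 0.0172). Dnmt3l, a cofactor of DNA methylation, had 26.3, 21.6 and 22 CPM in LINE1 ASO libraries, against 12.1, 6.13 and 11.5 in RC libraries (log2 1.23, SE 0.32, adjusted p = 0.0465). The Polycomb gene Rybp had 199.5, 161 and 243 CPM in LINE1 ASO libraries, against 345, 316 and 327 in RC libraries (log2 -0.71, SE 0.18, adjusted p = 0.0459) and did not pass with library totals.

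Among zygotic activators and homeobox regulators 4 of 39 tested genes were lower (10.3%, against 2.61% of all tested genes) and none was higher. The median was -0.21, and -0.025 with library totals. The oocyte-specific homeobox family member Obox6 had 212, 177 and 303 CPM in LINE1 ASO libraries, against 505, 443 and 431 in RC libraries (log2 -0.99, SE 0.20, adjusted p = 0.0230). Trim24, a co-regulator needed for zygotic transcription in mouse, had 88.1, 99.8 and 172 CPM in LINE1 ASO libraries, against 244, 247 and 312 in RC libraries (log2 -1.16, SE 0.24, adjusted p = 0.0238). Taf4b, a subunit of the general factor TFIID, had 105, 124 and 211 CPM in LINE1 ASO libraries, against 273, 358 and 305 in RC libraries (log2 -1.09, SE 0.24, adjusted p = 0.0280). The histone demethylase gene Kdm5b had 617, 632 and 867 CPM in LINE1 ASO libraries, against 1213, 1249 and 1168 in RC libraries (log2 -0.78, SE 0.18, adjusted p = 0.0301). In each of the 4, library 3 lay between libraries 1 and 2 and the RC libraries. Of 60 tested transcripts inherited from the oocyte 1 was higher (1.67%, against 1.93% of all tested genes), and the median was 0.27. It was the oocyte-secreted protein gene Oosp1, with 59.2, 26.2 and 19 CPM in LINE1 ASO libraries, against 8.78, 13.1 and 15.3 in RC libraries (log2 1.49, SE 0.39, adjusted p = 0.0475). Leaving out LINE1 ASO library 3 gave 7 higher genes among 60, where 4.89% of all genes were higher, and leaving out any 1 of the others gave no call.

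Genes of the ribosome and of its assembly had mostly negative differences, few of which passed the test. Of 82 tested cytoplasmic ribosomal protein genes 4 were lower (4.88%, against 2.61% of all tested genes) and none was higher. A negative difference was found in 79 of 82, and the median was -0.42 (-0.24 with library totals). Over all tested genes the median was 0.05 (0.23 with library totals). Rpl3, a core protein of the large subunit, had 337, 297 and 565 CPM in LINE1 ASO libraries, against 1001, 685 and 819 in RC libraries (log2 -1.06, SE 0.24, adjusted p = 0.0293). Rpl10, an X-linked gene, had 316, 338 and 364 CPM in LINE1 ASO libraries, against 572, 711 and 517 in RC libraries (log2 -0.82, SE 0.17, adjusted p = 0.0249). The other lower genes were Rpl36a (log2 -0.68) and the ribosome assembly gene Rpl7l1 (-0.71), both of which did not pass with library totals. The list's summed level was 28067, 23610 and 30789 CPM in LINE1 ASO libraries, against 43348, 30597 and 34013 in RC libraries. The groups overlapped at LINE1 ASO library 3 and RC library 2, and RC library 1 was the highest. Leaving out LINE1 ASO library 3 made 34 lower calls among 82, where 9.38% of all genes were lower. Leaving out any 1 other library made none. The median transcript length of the list was 1100 nt. Over the 14056 genes with a length, the log2 difference and length had a Spearman rho of 0.012, as a description across genes, and the part of length in the list's values was not tested. Ribosomal protein genes have many processed pseudogenes, and their reads may have been split.

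Of 109 tested genes of RNA polymerase I and rRNA processing 7 were lower (6.42%, against 2.61% of all tested genes) and 1 was higher. The median was -0.31 (-0.12 with library totals). Utp11l, a component of the small-subunit processome, had 37.4, 35.3 and 48.7 CPM in LINE1 ASO libraries, against 84.9, 87.0 and 82.5 in RC libraries (log2 -1.07, SE 0.20, adjusted p = 0.0181). The helicase gene Ddx10 had 101.2, 115 and 146 CPM in LINE1 ASO libraries, against 270.2, 231 and 194 in RC libraries (log2 -0.94, SE 0.20, adjusted p = 0.0243). Its relative Ddx47 had 51.5, 68.5 and 95.3 CPM in LINE1 ASO libraries, against 155, 128 and 146 in RC libraries (log2 -0.996, SE 0.22, adjusted p = 0.0291). Library 3 was below every RC library in all of them. Riok2, a kinase of late small-subunit maturation, had 59.1, 69.6 and 73.3 CPM in LINE1 ASO libraries, against 122, 137 and 105 in RC libraries (log2 -0.85, SE 0.19, adjusted p = 0.0279) and did not pass with library totals. In the fit without LINE1 ASO library 3 the list had 41 lower genes and 1 higher among 109, where 9.38% of all genes were lower and 4.89% higher. It had no call without 1 of the other libraries.

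Genes of mitosis, the spindle and the kinetochore had the largest share of lower calls among the lists with at least 20 tested genes. Of 75 tested genes 10 were lower (13.3%, against 2.61% of all tested genes) and none was higher, with a median of -0.41 (-0.24 with library totals). Their summed level was 10756, 10571 and 12937 CPM in LINE1 ASO libraries, against 16726, 15676 and 15588 CPM in RC libraries, with no overlap. The kinesin gene Kif20b, which acts in cytokinesis, had 150.5, 184 and 254 CPM in LINE1 ASO libraries, against 459.6, 514 and 383 in RC libraries (log2 -1.21, SE 0.21, adjusted p = 0.0172). Kif18a, a kinesin that aligns chromosomes, had 30.9, 40.6 and 72.9 CPM in LINE1 ASO libraries, against 136, 145 and 104 in RC libraries (log2 -1.41, SE 0.28, adjusted p = 0.0203). Ndc80, the kinetochore protein that holds microtubules, had 58.7, 54.0 and 97.3 CPM in LINE1 ASO libraries, against 169, 157 and 145 in RC libraries (log2 -1.16, SE 0.23, adjusted p = 0.0200). The kinetochore motor gene Cenpe had 875, 614 and 984 CPM in LINE1 ASO libraries, against 1794, 1488 and 1394 in RC libraries (log2 -0.92, SE 0.20, adjusted p = 0.0261). Library 3 was in each case the LINE1 ASO library nearest to RC, and below every RC library. Without it 29 of 75 members were lower, where 9.38% of all genes were, and without 1 of the other libraries at most 1 member was. Number of cells per embryo and cell cycle stage were not measured, and their part was not tested.

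In DNA replication and nucleotide synthesis 7 of 72 tested genes were lower (9.72%, against 2.61% of all tested genes) and 1 was higher. The median was -0.20 (-0.028 with library totals). The purine synthesis gene Atic had 83.8, 76.5 and 121 CPM in LINE1 ASO libraries, against 262, 156 and 185 in RC libraries (log2 -1.10, SE 0.23, adjusted p = 0.0249). Rrm2, the regulated subunit of ribonucleotide reductase, had 144, 109 and 195 CPM in LINE1 ASO libraries, against 349, 262 and 274 in RC libraries (log2 -0.98, SE 0.22, adjusted p = 0.0282). The replicative helicase gene Mcm6 had 236, 254 and 344 CPM in LINE1 ASO libraries, against 557, 486 and 444 in RC libraries (log2 -0.84, SE 0.19, adjusted p = 0.0296). The origin recognition gene Orc1 had 29.1, 45.4 and 36.3 CPM in LINE1 ASO libraries, against 62.6, 129.6 and 69.5 in RC libraries (log2 -1.24, SE 0.28, adjusted p = 0.0297). Orc1 did not pass with library totals. Of 65 tested genes of DNA damage response and repair 4 were lower (6.15%, against 2.61% of all tested genes). None was higher (median -0.20, and -0.031 with library totals). Brca2, central to homologous recombination, had 460.1, 571 and 638 CPM in LINE1 ASO libraries, against 956, 1977 and 1099.6 in RC libraries (log2 -1.27, SE 0.25, adjusted p = 0.0200), where RC library 2 stood far above the others of its group. The Fanconi anaemia gene Fancm (log2 -0.86), the Bloom helicase gene Blm (-1.03) and the uracil glycosylase gene Ung (-0.76) were the others, and Ung did not pass with library totals. The fit without LINE1 ASO library 3 had 22 lower and 2 higher genes among 72 in replication and 15 lower among 65 in repair. Of all genes in that fit 9.38% were lower and 4.89% higher. In fits without 1 of the other libraries replication had none and repair at most 1, which was lower.

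Stress, metabolic and other housekeeping lists had 0 to 4 calls each with all 6 libraries. Of all tested genes 1.93% were higher and 2.61% lower, or 4.53% in all. Without LINE1 ASO library 3 the shares of all genes were 4.89% higher and 9.38% lower. The unfolded protein and integrated stress response had no call among 49 tested genes and a median of 0.21; without LINE1 ASO library 3 edgeR called 4 higher and 4 lower. Of 40 heat shock and chaperonin genes 1 was higher (2.5%) and 3 were lower (7.5%). The median was -0.04, and 0.15 with library totals. The Hsp90 activator gene Ahsa1 had 140.2, 142 and 121 CPM in LINE1 ASO libraries, against 92.7, 77.0 and 83.5 in RC libraries (log2 0.67, SE 0.18, adjusted p = 0.0472). The Hsp70 co-chaperone gene Dnaja1 had 587, 533 and 614 CPM in LINE1 ASO libraries, against 1322, 1144 and 849 in RC libraries (log2 -0.93, SE 0.19, adjusted p = 0.0203). Bag3 (log2 -1.23) and Chordc1 (-1.25), which encode co-chaperones of Hsp70 and Hsp90, were also lower, Chordc1 not with library totals. Oxidative phosphorylation genes encoded in the nucleus had no call among 75 (median -0.07, and 0.11 with library totals; 1 higher and 3 lower without LINE1 ASO library 3).

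Glycolysis and related pathways had 1 higher and 1 lower gene among 33 (3.03% each, against 1.93% and 2.61% of all tested genes). Ldhb, a lactate dehydrogenase subunit, had 98.2, 102 and 85.0 CPM in LINE1 ASO libraries, against 50.3, 56.7 and 55.9 in RC libraries (log2 0.81, SE 0.18, adjusted p = 0.0301). Hk1, a hexokinase, had 38.0, 36.1 and 98.4 CPM in LINE1 ASO libraries, against 231, 169.7 and 181 in RC libraries (log2 -1.75, SE 0.35, adjusted p = 0.0244). For Hk1 library 3 was well above libraries 1 and 2 and below every RC library. The list's median was -0.09, and 0.09 with library totals. The proteasome regulatory genes Psmd8 (log2 -1.21) and Psmd14 (-0.67, which did not pass with library totals) were lower among 47 (4.26%). The median of the proteasome list was -0.08 (0.10 with library totals). Of 75 spliceosome and SR protein genes 1 was higher (1.33%) and 3 were lower (4%). Cdc5l, a core splicing factor, had 767, 761 and 374 CPM in LINE1 ASO libraries, against 339, 327 and 317 in RC libraries (log2 0.95, SE 0.24, adjusted p = 0.0414), and its library 3 was just above the RC libraries. Srsf9 (log2 -0.996), Snrnp200 (-1.11) and Srsf6 (-0.65, which did not pass with library totals) were lower. The list's median was -0.12, and 0.06 with library totals. In fits without 1 library other than LINE1 ASO library 3 at most 1 gene of each of these lists was called. Without LINE1 ASO library 3 splicing had 15 lower genes of 75, heat shock 9 of 40, glycolysis 4 of 33 and the proteasome 3 of 47. Of all genes in that fit 9.38% were lower.

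The replication-dependent histone genes had no call among 57 tested. With LINE1 ASO library 3 left out, edgeR called 8 of 57 lower and none higher, where 9.38% of all genes were lower. With any 1 other library left out it called none. In library 3 these 8 genes lay a median of -16.0% along the difference of libraries 1 and 2, that is, on the other side of the RC mean, and it was outside the RC range for 1. The linker histone gene Hist1h1b had 39.7, 47.0 and 111 CPM in LINE1 ASO libraries, against 127, 100.1 and 152 in RC libraries. Hist1h1e had 57.6, 53.2 and 137 CPM in LINE1 ASO libraries, against 121, 88.4 and 141 in RC libraries. Both were named after their values were seen. The list's summed level was 1298, 1321 and 2300 CPM in LINE1 ASO libraries, against 1978, 1584 and 2181 in RC libraries. LINE1 ASO library 3 held the highest level of all 6. Histone genes are near-identical copies, so single members are uncertain.

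**Figure D4:**
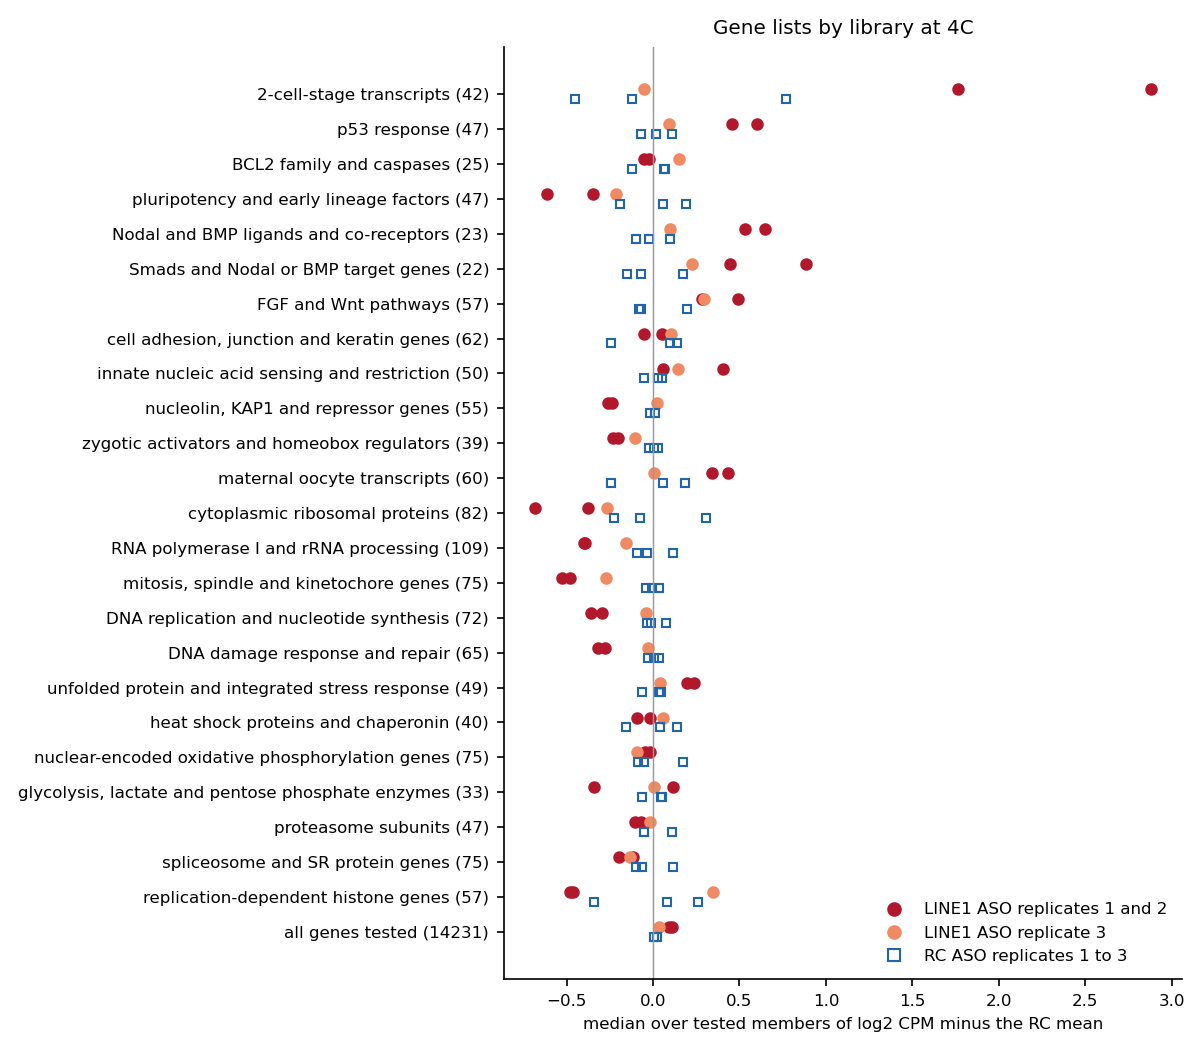
Median over tested members of log2 CPM minus the RC mean, for each gene list and library at 4C; filled circles are LINE1 ASO libraries (replicate 3 in light colour), open squares RC libraries, and numbers in brackets are tested genes. The mitosis list has all LINE1 ASO libraries below all RC libraries, the 2-cell list has replicates 1 and 2 at 1.76 and 2.88 and replicate 3 at -0.05, and the histone list has replicate 3 above all other libraries.

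With all 6 libraries a larger share of X-linked genes was called lower than of the genes of any autosome, a difference that was not tested and that did not hold without LINE1 ASO library 3. Of 505 tested X-linked genes 24 were lower (4.75%, against 2.61% of all tested genes) and 3 were higher (0.594%, against 1.93%); on single autosomes the share of lower genes was 0.738% to 3.73%. Xist, the RNA that coats the inactive X chromosome, had 57.9, 49.2 and 65.2 CPM in LINE1 ASO libraries, against 188, 839.5 and 249 in RC libraries (log2 -2.89, SE 0.56, adjusted p = 0.0382), with no overlap and with RC library 2 far above the others. The cohesin subunit gene Smc1a had 70.8, 60.9 and 106 CPM in LINE1 ASO libraries, against 195, 254 and 213 in RC libraries (log2 -1.47, SE 0.22, adjusted p = 0.0144). The ubiquitin ligase gene Huwe1 had 416, 514 and 856 CPM in LINE1 ASO libraries, against 1099, 1513 and 1392 in RC libraries (log2 -1.17, SE 0.24, adjusted p = 0.0240). These 2 genes were named after their values were seen.

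The summed level of X-linked genes was 21078, 23003 and 22802 CPM in LINE1 ASO libraries, against 24567, 33359 and 26286 in RC libraries. There was no overlap, with or without Xist, as for 13 of all 20 chromosomes tested this way. Scaled by library totals the X-linked sums were 22325, 25968 and 23019 in LINE1 ASO libraries, against 21968, 32392 and 25079 in RC libraries, and the groups overlapped. The median log2 difference over all X-linked genes was -0.024, near that of all genes, and 0.153 without RC library 2, the library with the most Xist; with library totals it was 0.154. The count of lower X-linked genes was 0 without LINE1 ASO library 1 or 2 or RC library 1, 1 without RC library 2 and 4 without RC library 3. It was 58 without LINE1 ASO library 3, or 11.5% of the 505 X-linked genes tested with all 6 libraries. Over the 14895 genes tested in the fit without it the share was 9.38%, which is not on the same basis. On the basis used for X, chromosomes 5 (11.8%) and 4 (11.5%) had shares as large. DESeq2 called 46 lower X-linked genes. With library totals 14 were lower and 6 higher. Y-linked genes had a summed level of 61.0, 40.7 and 80.9 CPM in LINE1 ASO libraries, against 107.5, 32.3 and 76.4 in RC libraries. They were lowest in RC library 2, where the X-linked sum was highest, and none of 7 tested genes was called. Ddx3y, a Y-linked helicase, had 15.3, 13.2 and 27.4 CPM in LINE1 ASO libraries, against 44.6, 6.56 and 30.0 in RC libraries. The translation factor gene Eif2s3y had 15, 8.30 and 12.0 CPM in LINE1 ASO libraries, against 27.1, 3.98 and 11.6 in RC libraries. The groups overlapped for both, and the part of embryo sex in the X-linked differences was not tested.

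**Figure D5:**
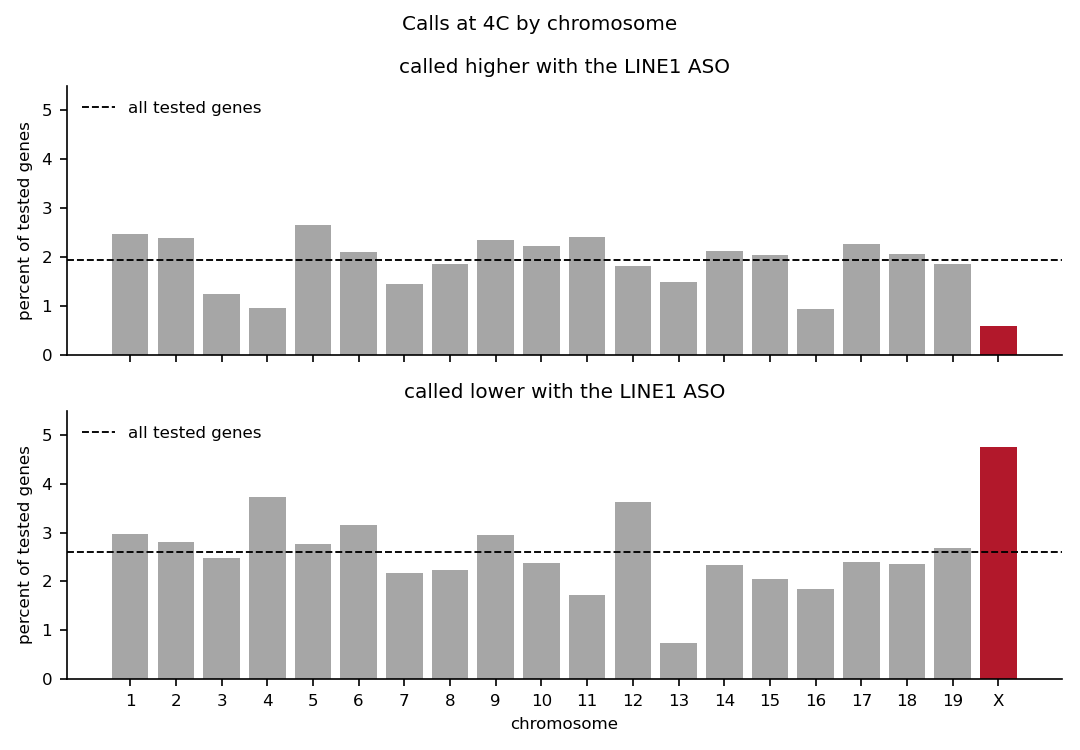
Percent of tested genes on each chromosome called higher (top) and lower (bottom) with the LINE1 ASO at 4C, with dashed lines at the share of all tested genes, 1.93% and 2.61%. The X chromosome has 0.594% higher and 4.75% lower.

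RNA of other cells was low in both groups. Of 24 cumulus and granulosa cell markers 9 were tested and none was called. Their summed level was 84.0, 99.0 and 57.7 CPM in LINE1 ASO libraries, against 68.1, 59.7 and 59.2 in RC libraries, and Fshr, Lhcgr, Hsd3b1, Inha and Col3a1 had no count in any library. Sperm markers summed to 128, 145 and 94.8 CPM in LINE1 ASO libraries, against 80.3, 66.6 and 85.5 in RC libraries, with no overlap. Nearly all of that was Odf2, which also serves in centrosomes, at 124, 138 and 89.3 CPM in LINE1 ASO libraries, against 75.2, 65.6 and 80.7 in RC libraries. Tnp2, Smcp, Gapdhs and Pgk2 had no count. Blood markers summed to at most 7.10 CPM, and no globin had a count. The part of other cells in the differences above was not tested.

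The change at 4C differed from that at early 2C for a share of the genes. Early 2C embryos got the same 2 ASOs and were collected within hours of injection, with 3 libraries per group and none shared with 4C. Of the 645 genes called at 4C, 587 were tested at early 2C and 10 of these were called there, where 0.367% of tested genes were called. Of these 587 genes, 264 had a change of the opposite sign there. A test of the interaction of stage and ASO over all 12 libraries called 128 of the 645 genes (1.12% of the 15760 genes tested in that fit were called). The 645 genes were chosen on the same 4C libraries, so a share above that of all genes is built in. For Haus6 the log2 change was -1.64 at 4C and 0.080 (SE 0.12) at early 2C, and its interaction passed (adjusted p = 0.00362). For Maml1 it was 2.55 at 4C and 0.21 (SE 0.15) at early 2C (interaction adjusted p = 0.00962). Dux, at 5.85 at 4C, was at 0.076 (SE 0.16) at early 2C, when it is normally on (interaction adjusted p = 0.0386). Trp53 was at 1.47 at 4C and 0.068 at early 2C (interaction adjusted p = 0.0498). Ddit4 was higher at both stages, by 1.35 at 4C and 0.79 (SE 0.15; adjusted p = 0.0193) at early 2C, and so was Smad3, by 1.01 and 0.46 (adjusted p = 0.0270). Without LINE1 ASO library 3 at 4C the interaction was called for 416 of the 645 genes, and without any 1 other library of the 12 for 13 to 177. The other 4C libraries gave 22 and 20 without LINE1 ASO library 1 or 2, and 31, 104 and 177 without RC library 1, 2 or 3.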

How the data were processed

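Read counts per gene of 6 RNA libraries at 4C were analysed, with 6 early 2C libraries used for the test of stage by ASO. The authors deposited raw counts as 1 table per stage. The aligner TopHat2 2.0.9, the trimmer Trim Galore 0.4.0 and the build mm9 are named, per the submitters' processing notes, which also list R 3.3.0 with the package DESeq2 1.12.3. The strand setting and gene annotation of the counting are not stated in those sources, so overlapping genes and near-identical copies are uncertain. Libraries were grouped by the ASO in the labels.

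R 4.3.3 and edgeR 4.0.16 were used: TMM scaling after filterByExpr, a robust quasi-likelihood F-test and p-values adjusted by Benjamini-Hochberg across every tested gene (threshold 0.05). SEs were obtained as |log2 difference| over the root of F, and log2 CPM used a prior count of 2. Counts per library of 19160716 to 25101276 limit precision for low genes. The alternatives were DESeq2 1.42.0, other scalings, filters and dispersions, a replicate block, a joint fit and each library left out; those on the X chromosome were chosen after seeing the data. The fit was tested on simulated data. The comparison, the 29 lists of genes and the naming rule were chosen with earlier results of these data known. Named by rule were, in each direction, the 12 called genes of largest change (mean of 50 counts or more, groups separate), every gene called in all fits without 1 library, up to 4 called members per list by p, and Dux, Zscan4c, Zscan4d, Zscan4f, Zfp352, Ncl, Trim28, Rn45s, Pou5f1, Nanog, Cdkn1a, Xist, Ddx3y and Eif2s3y; other named genes were chosen after their values were seen. The main fit did not pair libraries by replicate number, and whether the numbers pair them is not settled.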

Additional observations from a re-analysis of the deposited data

Results flagged for a closer look

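For 17 of the named genes the change with the LINE1 ASO at 4C differed from that at early 2C in edgeR's interaction test over all 12 libraries, at an adjusted p under 0.05. Most of these genes were named for their values in the same 4C libraries, which favours such a difference. The values are the log2 change at 4C minus that at early 2C. It was positive for Dux (5.85), Zscan4f (7.79) and Nacad (9.34), of which the Zscan4f and Nacad values depend on a few counts in RC libraries and are no bound. The p53 genes Ppm1d (1.87) and Trp53 (1.45), the Notch co-activator Maml1 (2.40), the myelination gene Sh3tc2 (4.14) and the imprint guardian Zfp57 (1.32) had positive values as well, as did the LINE1 restraint gene Tex19.1 (1.10), the Hsp90 activator Ahsa1 (0.87) and the lactate dehydrogenase gene Ldhb (0.99). It was negative for the pluripotency factors Esrrb (-2.12) and Tfap2c (-1.18), for the spindle genes Haus6 (-1.67), Kif18a (-1.61) and Kif20b (-1.26), and for the nucleotide synthesis gene Rrm2 (-1.12). With the replicate number as a block, 8 of the 645 genes called at 4C passed the interaction test in place of 128.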

How the results depend on the processing

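The genes called (645, 274 higher and 371 lower) numbered 1491 with DESeq2 (669 and 822), 1108 with no filter on low counts (487 and 621), 1714 in a joint fit of 12 libraries (1099 and 615) and 802 with library totals (563 and 239). Fits without 1 library gave 4 to 2126 genes, 3 to 729 higher and 1 to 1397 lower. DESeq2 factors, a stricter filter, the 20 most abundant genes left out and no robust dispersion gave 635 to 726. Calls within the gene lists (95) numbered 198 with DESeq2, 149 with no filter, 207 in the joint fit and 2 to 352 without 1 library. The interaction calls among the 645 genes (128) numbered 382 with DESeq2 and 13 to 416 without 1 library. With a replicate block there were 1504 calls (582 and 922), 223 in the lists and 8 for the interaction. Same-numbered libraries had deviation correlations of 0.0139, 0.135 and 0.106. LINE1 ASO libraries 2 and 3 correlated best with the RC library of their own number, and LINE1 ASO library 1 with RC library 2 (0.0491). Whether the numbers pair the samples is therefore not settled. The median share carried by LINE1 ASO library 3 was 41.6% with library totals and 39.5% with a prior count of 0.5. Of the 98 named genes, 3 that were not called changed sign: Zfp352 ranged from -0.35 without LINE1 ASO library 2 to 1.68 without RC library 2, Ddx3y from -0.999 to 0.027 and Eif2s3y from -0.72 to 0.59 without RC library 2 or 1, and Eif2s3y was 0.064 with the replicate block. Of the 86 named calls 12 did not pass with library totals, and 16 of 30 list medians moved. The cause of these changes was not tested. Counting depth limits statements on genes with a few counts in RC libraries, and 3 libraries per group limit all others.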
